A study of Mus musculus with 2 samples.

Results

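The genes described are the solute carriers that move ions, phosphate, sulfate, dicarboxylates and bicarbonate across kidney cell membranes, chosen as every gene of families Slc4, Slc8, Slc9, Slc12, Slc13, Slc20, Slc26 and Slc34 with a probe set of its own among those analysed here. They number 47 genes, read by 96 of 45101 probe sets, among 18194 named genes in all. The EST KO AKI pool held kidney tissue (124 mg) of 6 male mice lacking estrogen sulfotransferase, the product of Sult1e1, which inactivates estrogens by attaching sulfate. The WT AKI pool held kidney tissue (180 mg) of 3 male wild-type mice. Strain C57BL/6 is given for both pools, and the protocol gives an age of 8 weeks. Mice of both genotypes underwent 30 min of warm bilateral renal ischemia with reperfusion, a model of acute kidney injury (AKI), and kidneys were taken 24 h later. The study asks how loss of the enzyme alters transcript levels in the injured male kidney. Both pools came from injured kidney, so nothing here compares injured with uninjured tissue. Each pool was read on 1 array, the spread between mice is unknown, and no test between genotypes is possible. Precision is limited by having 1 array a genotype.

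Families Slc34 and Slc20 carry phosphate into cells with sodium, and Slc13 carries sulfate, citrate and dicarboxylates such as succinate and alpha-ketoglutarate with sodium. Slc26 proteins exchange anions, Slc4 proteins move bicarbonate, Slc9 proteins exchange sodium for protons, Slc8 proteins exchange sodium for calcium, and Slc12 proteins move chloride together with sodium or potassium. In the kidney most filtered phosphate, sulfate, citrate and bicarbonate is recovered by the proximal tubule, whereas the thick ascending limb of the loop of Henle and the distal convoluted tubule recover salt through Slc12a1 and Slc12a3.

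The highest ratios of all the carriers measured were those of Slc13a3 and Slc13a1, of the sulfate and dicarboxylate group. Slc13a5, of the same group and above background in both pools, was 1.13-fold higher only. Slc13a3 was 6.64-fold and Slc13a1 5.15-fold higher in the EST KO AKI pool, followed by the bicarbonate carrier Slc4a4 (2.50-fold), the salt carrier Slc12a1 (2.28-fold) and Slc13a2 (at least 2.17-fold). No carrier reached a 2-fold difference in the other direction, where the lowest ratio was that of the anion exchanger Slc4a2, 1.64-fold lower in the EST KO AKI pool. The main phosphate carrier Slc34a1 was 1.68-fold higher, and the sodium-proton exchanger Slc9a3 differed by 1.10-fold.

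Background, the level above which a probe set was called measured, was 638.3 in the EST KO AKI pool and 676.1 in the WT AKI pool. Of the 47 carriers, 17 lay above it in both pools, 4 in the EST KO AKI pool alone and 1 in the WT AKI pool alone, while 25 lay below it in both. A value below background was set to background before the ratio was taken, so such a fold is a lower bound, written "at least". Genes under background in both pools have no fold. Among the 17 carriers above background in both pools, 4 were higher by 2-fold or more in the EST KO AKI pool and none was lower by as much. Over all 6118 genes above background in both pools, 3.01% were higher and 1.23% lower by 2-fold or more. Of these 17 carriers 12 were higher by any amount, with a median log2 ratio of 0.14, where all such genes had 44.8% higher and a median of −0.05. The 125 other Slc genes above background in both pools had a median of 0.16, with 13 higher and 1 lower by 2-fold or more, so the carriers and the other Slc genes had nearly the same median. Counting every gene above background in at least 1 pool, 5 of 22 carriers were higher by 2-fold or more, beside 3.00% of 7492 genes, and 0 were lower by as much, beside 1.40%. By any amount, 16 of the 22 were higher and 6 lower in the EST KO AKI pool, beside 43.5% and 54.6% of all measured genes. A gene above background in 1 pool alone could only come out higher in that pool, so the counts over 22 carriers are a description, and each group and list that follows is counted over its genes above background in both pools.

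**Figure D1:**
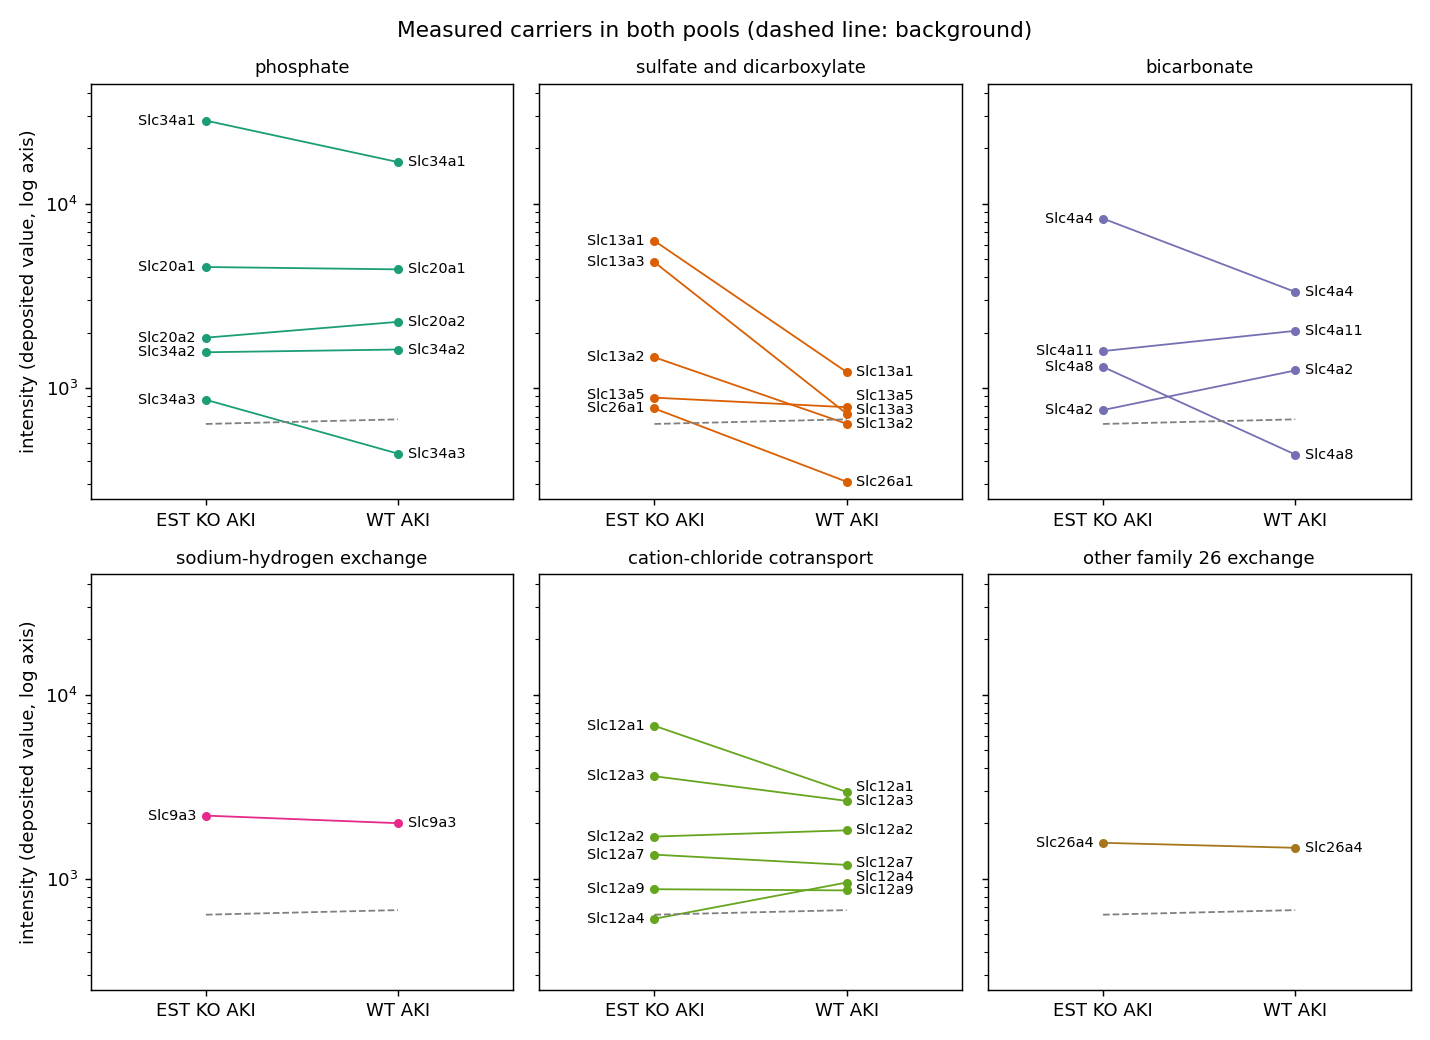
Intensity (deposited linear value, log axis) of the 22 carriers above background in at least 1 pool, with the EST KO AKI pool on the left and the WT AKI pool on the right of each panel; each line is 1 gene and the dashed line is background (638.3 and 676.1). Lines of Slc13a3 and Slc13a1 slope down the most from the EST KO AKI pool, and those of Slc20a1, Slc34a2, Slc9a3 and Slc26a4 are close to level.

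Promoter sequences are shown for Slc13a3, Slc13a2, Slc4a4 and Slc12a1, which were at least 2-fold higher in the EST KO AKI pool, and for Slc34a1, the main phosphate carrier of the proximal tubule. Each is the 250 bases before a RefSeq transcript start (GRCm38.p6), written 5′ to 3′ on the strand of the gene. Capitals mark GTTAAT (a half-site of HNF1, a proximal tubule transcription factor), TATAAA (the TATA box), GGGCGG (the GC box) and CACGTG (the E-box), each on either strand.
Slc13a3, chr2:165473198-165473447, minus strand: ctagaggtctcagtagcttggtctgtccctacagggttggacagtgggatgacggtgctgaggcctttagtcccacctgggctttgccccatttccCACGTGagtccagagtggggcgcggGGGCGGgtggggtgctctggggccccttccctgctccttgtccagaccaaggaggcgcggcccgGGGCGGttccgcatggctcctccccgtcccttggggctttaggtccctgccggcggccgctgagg
Slc13a2, chr11:78422235-78422484, minus strand: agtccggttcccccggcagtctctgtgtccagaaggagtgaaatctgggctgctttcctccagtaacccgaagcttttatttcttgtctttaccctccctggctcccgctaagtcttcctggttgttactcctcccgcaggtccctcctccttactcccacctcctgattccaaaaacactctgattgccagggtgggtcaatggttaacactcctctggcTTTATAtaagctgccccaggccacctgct
Slc4a4, upstream start, chr5:88887010-88887259, plus strand: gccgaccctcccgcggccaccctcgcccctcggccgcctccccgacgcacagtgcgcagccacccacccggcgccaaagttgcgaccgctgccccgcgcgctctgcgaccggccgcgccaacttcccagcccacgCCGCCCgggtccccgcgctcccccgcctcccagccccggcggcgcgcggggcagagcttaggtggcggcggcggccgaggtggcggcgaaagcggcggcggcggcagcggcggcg
Slc4a4, downstream start, chr5:89027716-89027965, plus strand: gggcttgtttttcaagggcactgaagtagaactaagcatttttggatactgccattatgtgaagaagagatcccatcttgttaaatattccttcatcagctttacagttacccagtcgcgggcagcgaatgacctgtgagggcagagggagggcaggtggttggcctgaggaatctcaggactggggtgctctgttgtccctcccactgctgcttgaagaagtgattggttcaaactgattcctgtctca
Slc12a1, chr2:125152350-125152599, plus strand: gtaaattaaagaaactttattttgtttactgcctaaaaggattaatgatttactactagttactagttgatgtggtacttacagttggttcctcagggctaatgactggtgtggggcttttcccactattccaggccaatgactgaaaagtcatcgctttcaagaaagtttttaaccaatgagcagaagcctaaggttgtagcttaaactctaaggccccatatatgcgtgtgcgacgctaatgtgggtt
Slc34a1, chr13:55399398-55399647, plus strand: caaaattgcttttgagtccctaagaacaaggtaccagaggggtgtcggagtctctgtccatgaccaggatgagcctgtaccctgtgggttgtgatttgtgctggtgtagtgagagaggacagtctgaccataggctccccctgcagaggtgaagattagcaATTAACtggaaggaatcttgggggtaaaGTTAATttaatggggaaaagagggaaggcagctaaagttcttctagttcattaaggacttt

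These windows differed among carriers that went the same way. The GC content was 82.0% at the upstream start of Slc4a4 and 48.8% at its downstream start, 67.6% in Slc13a3, 53.6% in Slc13a2, 46.4% in Slc34a1 and 39.6% in Slc12a1, beside a median of 52.4% over 32851 promoter windows. The HNF1 half-site stood in the Slc34a1 window at 89 and 61 bases before the start, and in none of the other 23 windows of measured carriers, while 6.43% of all windows held it. Slc13a2 carried a TATA box 29 bases before its start, a motif in 12.4% of all windows. Slc13a3 held the GC box at 129 and 65 bases and the E-box at 154 bases before its start, motifs found in 32.7% and 6.02% of all windows. Neither the HNF4 letters CAAAGTCCA nor the estrogen response element (GGTCA and TGACC, 3 bases apart) occurred on either strand in any of the 24 windows, which stood for 18 of the 22 measured carriers. They occurred in 0.384% and 0.0639% of all windows. A match of letters is a description of the window and not a site.

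Phosphate carriers went in both directions. Slc34a1, the sodium-phosphate carrier of the proximal tubule brush border, read 28347 in the EST KO AKI pool and 16871 in the WT AKI pool, a log2 ratio of 0.75. Slc34a3, its relative in the same membrane, read 863.8 in the EST KO AKI pool and 440.2 in the WT AKI pool, the second below background, and was at least 1.28-fold higher. Without the floor at background its log2 ratio was 0.97. Being above background in the EST KO AKI pool alone, Slc34a3 could only come out higher. Of Slc34a1 and Slc34a3, only Slc34a1 thus has a ratio free to go either way. Slc34a2, the form best known from lung and intestine, read 1564 in the EST KO AKI pool and 1619 in the WT AKI pool. Slc20a1, a housekeeping phosphate carrier that also serves as a retrovirus receptor, read 4543 in the EST KO AKI pool and 4411 in the WT AKI pool. These 2 genes have no settled direction, since the log2 ratio of Slc34a2 ran from −0.07 to 0.01 and that of Slc20a1 from −0.13 to 0.10 over the 8 settings. Slc20a2, the second housekeeping phosphate carrier, was lower at both of its probe sets above background: 1878 in the EST KO AKI pool against 2288 in the WT AKI pool at the brighter, and 732.2 in the EST KO AKI pool against 1253 in the WT AKI pool at the other. Of the 4 phosphate carriers above background in both pools 2 were higher and 2 lower, with a median log2 ratio of −0.0036.

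Genes that act on phosphate carriers included some of the largest ratios on the array. Of 13 genes of that partner list, all above background in both pools, 10 were higher and 3 lower in the EST KO AKI pool. Among all genes above background in both pools 44.8% were higher. At least 2-fold higher were 4 of the 13, beside 3.01% of all such genes. The median log2 ratio was 0.27, beside −0.05 for all such genes. Pdzk1, a scaffold that binds Slc34a1 in the brush border, read 8243 in the EST KO AKI pool and 1070 in the WT AKI pool (7.71-fold higher). Slc9a3r1, the scaffold NHERF1, read 9192 in the EST KO AKI pool and 3946 in the WT AKI pool (2.33-fold higher). Alpl, which frees phosphate from organic esters, was 3.55-fold higher, and Kl, the co-receptor through which FGF23 lowers phosphate uptake, 3.43-fold higher. The related scaffold Slc9a3r2 (NHERF2) went the other way, at 1572 in the EST KO AKI pool and 2215 in the WT AKI pool (1.41-fold lower), and Ezr, which encodes the linker protein ezrin, was 1.16-fold higher, so the scaffold genes did not share a direction.

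Slc13a3 encodes the basolateral dicarboxylate carrier that loads proximal tubule cells with alpha-ketoglutarate for organic anion exchange. It read 4822 in the EST KO AKI pool and 726.4 in the WT AKI pool, and ranked 5 from the top among all measured genes. A second probe set above background, of a kind that can also read related transcripts, gave 4775 in the EST KO AKI pool and 440.9 in the WT AKI pool, at least 7.06-fold higher. The WT AKI value at the brighter probe set lay 1.07-fold above background, and adding the background level to both pools lowered the log2 ratio of 2.73 to 1.96. Slc13a1, the brush border sodium-sulfate carrier that recovers filtered sulfate, read 6299 in the EST KO AKI pool and 1222 in the WT AKI pool and ranked 11. Both genes were thus at the top of the list of all measured genes, and no other carrier was among its 100 highest ratios.

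Slc13a2, the brush border carrier of citrate and succinate, read 1469 in the EST KO AKI pool and 640.0 in the WT AKI pool, the second below background. With background added to both values its log2 ratio was 0.68, under 2-fold. Slc13a5, a citrate carrier best known from liver, read 886.8 in the EST KO AKI pool and 787.2 in the WT AKI pool, 1.13-fold higher. Slc26a1, which exchanges sulfate for other anions at the basolateral membrane, read 774.6 in the EST KO AKI pool and 310.1 in the WT AKI pool, at least 1.15-fold higher. Its log2 ratio was 0.20 as that bound and 1.32 without the floor, so its size rests on a dim value. Slc26a6, an oxalate and chloride exchanger, read 570.5 in the EST KO AKI pool and 549.0 in the WT AKI pool, below background in both, as were Slc13a4 and Slc26a2. Slc13a2 and Slc26a1, above background in the EST KO AKI pool alone, could only come out higher. The 3 other measured genes of the sulfate and dicarboxylate group, Slc13a3, Slc13a1 and Slc13a5, were higher, the last by a log2 ratio of 0.17 only.

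Genes that make or use sulfate went in both directions. Of 11 genes of the sulfate list above background in both pools 9 were higher and 2 lower in the EST KO AKI pool. Among all such genes 44.8% were higher. Of the 11, 0 were 2-fold apart, and the median log2 ratio was 0.31. Sult1c2, a cytosolic sulfotransferase, read 1963 in the EST KO AKI pool and 257.3 in the WT AKI pool, at least 2.90-fold higher. Being above background in the EST KO AKI pool alone, Sult1c2 could only come out higher. Its log2 ratio without the floor, 2.93, rests on a dim value. Sult1a1, another cytosolic sulfotransferase, was 1.32-fold lower. Suox, which makes sulfate from sulfite, was 1.75-fold higher, Bpnt1, which clears the by-product of sulfation, 1.70-fold, and Papss2, a synthase of the activated sulfate PAPS, 1.65-fold. Sult1e1, the disrupted gene, read 17.2 in the EST KO AKI pool and 472.7 in the WT AKI pool, below background in both, so these values do not check the genotype.

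Partners of the dicarboxylate carriers were mostly higher as well. Of 21 genes above background in both pools 18 were higher and 3 lower, where 44.8% of all such genes were higher. At least 2-fold higher were 6 of the 21, beside 3.01% of all such genes, and the median log2 ratio was 0.63. Slc22a6, the organic anion transporter OAT1 that exports the alpha-ketoglutarate brought in by Slc13a3, read 9904 in the EST KO AKI pool and 1622 in the WT AKI pool (6.11-fold higher). Acy3, an aminoacylase, was 5.16-fold higher, Slc25a10, the mitochondrial dicarboxylate carrier, 3.52-fold, and Suclg1, a subunit of succinyl-CoA ligase, 3.28-fold. The 3 lower genes were Acly (1.48-fold), Sdha (1.08-fold) and Suclg2 (1.02-fold), which encodes another subunit of that ligase.

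**Figure D2:**
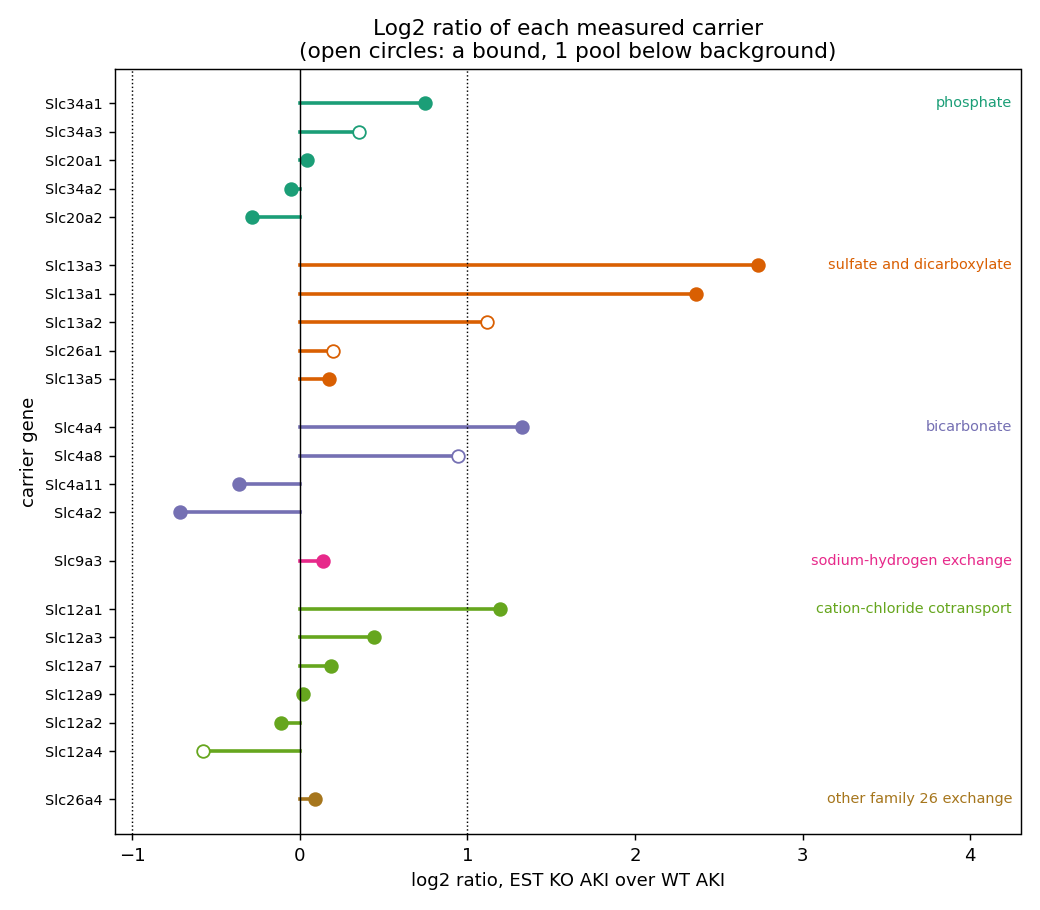
Log2 ratio (EST KO AKI over WT AKI) of the 22 measured carriers by role group; filled circles are genes above background in both pools, open circles are bounds, and dotted lines mark a 2-fold difference. Carriers to the right of the 2-fold line are Slc13a3, Slc13a1, Slc4a4, Slc12a1 and Slc13a2, and none lies to the left of the other line.

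Bicarbonate carriers split by member. Slc4a4, the basolateral sodium-bicarbonate cotransporter through which proximal tubule cells return bicarbonate to the blood, read 8328 in the EST KO AKI pool and 3328 in the WT AKI pool. Its other 3 probe sets above background were 2.41-fold, 2.88-fold and at least 6.20-fold higher, so all 4 went the same way. The mean of their log2 ratios was 1.69, against 1.32 at the brightest. Slc4a8, a sodium-driven chloride-bicarbonate exchanger, read 1302 in the EST KO AKI pool and 435.6 in the WT AKI pool, at least 1.93-fold higher. Its log2 ratio was 1.58 without the floor, and its other 4 probe sets lay below background in both pools. Slc4a2, the widely expressed anion exchanger AE2, read 759.6 in the EST KO AKI pool and 1246 in the WT AKI pool. Slc4a11, a relative that carries no bicarbonate, read 1588 in the EST KO AKI pool and 2045 in the WT AKI pool, 1.29-fold lower. Of the 3 Slc4 genes above background in both pools, Slc4a4 was thus higher and Slc4a2 and Slc4a11 lower, with a median log2 ratio of −0.37. Slc4a1, the anion exchanger of red blood cells and of acid-secreting intercalated cells, read 259.1 in the EST KO AKI pool and 87.0 in the WT AKI pool, below background in both. The 3 red blood cell markers with a probe set (Hba-a1, Alas2 and Epb42) were also below background in both pools.

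Slc9a3, the brush border exchanger NHE3 that trades sodium for protons and is the main route of sodium into the proximal tubule, read 2204 in the EST KO AKI pool and 2005 in the WT AKI pool. It was the only one of 7 sodium-proton exchangers above background. Its log2 ratio of 0.14 was smaller than that of each of the 9 proximal tubule markers above background in both pools. Slc26a4, the exchanger pendrin of bicarbonate-secreting intercalated cells, read 1568 in the EST KO AKI pool and 1473 in the WT AKI pool. All 5 intercalated cell markers lay below background in both pools. Slc9a3 and Slc26a4 thus differed between the pools by 1.10-fold and 1.06-fold only.

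Acid-base partners had 7 of 10 genes above background in both pools higher and 3 lower, where 44.8% of all such genes were higher. At least 2-fold higher were 3 of the 10, beside 3.01% of all such genes, and the median log2 ratio was 0.37. Pck1, the gluconeogenic enzyme that also serves ammonia production, was 6.27-fold higher. Carbonic anhydrases, which interconvert carbon dioxide and bicarbonate, split: the membrane forms Car12 (4.19-fold) and Car4 (2.16-fold) were higher in the EST KO AKI pool, whereas Car15, also anchored to the membrane, was 1.44-fold lower and the cytosolic form Car2 1.26-fold lower. The membrane form Car14 was at least 4.67-fold higher, being below background in the WT AKI pool. Pck1 (701.5) and Car12 (708.7) lay just above the background of 676.1 in the WT AKI pool, so the sizes of their folds rest on dim values.

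Salt carriers of the loop and distal tubule were higher in the EST KO AKI pool. Slc12a1, the sodium-potassium-chloride cotransporter NKCC2 of the thick ascending limb and the target of loop diuretics, read 6776 in the EST KO AKI pool and 2965 in the WT AKI pool. Its second probe set lay below background in both pools. The only loop of Henle marker above background in both pools did not go with it: Umod, which encodes uromodulin, the main secreted protein of that segment, read 22735 in the EST KO AKI pool and 25568 in the WT AKI pool. Umod was thus 1.12-fold lower, and the comparison of Slc12a1 with the loop marker list rests on this 1 gene. Of the other loop markers Kcnj1 and Ptger3 lay above background in the WT AKI pool alone and could only come out lower, and Cldn16 and Cldn19 lay below it in both. Umod made up most of the summed levels of the 3 measured loop markers, 23504 in the EST KO AKI pool and 27008 in the WT AKI pool. These sums thus add little to Umod alone.

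Slc12a3, the thiazide-sensitive cotransporter NCC of the distal convoluted tubule, read 3605 in the EST KO AKI pool and 2650 in the WT AKI pool, 1.36-fold higher. Of 4 distal convoluted tubule markers above background in both pools, 3 were higher and 1 lower, with a median log2 ratio of 0.17. Pvalb, above background in the EST KO AKI pool alone, could only come out higher. The 4 others had summed levels of 19978 in the EST KO AKI pool and 10029 in the WT AKI pool. Egf read 11697 in the EST KO AKI pool and 2341 in the WT AKI pool and made up most of that difference. The log2 ratio of Slc12a3, 0.44, was thus above the marker median and far below that of Egf, 2.32.

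The other Slc12 carriers, which act mainly in cell volume control, showed no 2-fold difference. Slc12a2, the widely expressed cotransporter NKCC1, read 1696 in the EST KO AKI pool and 1834 in the WT AKI pool, 1.08-fold lower. A second probe set read 656.6 in the EST KO AKI pool and 543.8 in the WT AKI pool, of which the first lay above its background but under that of the WT AKI pool, so it has no order. Slc12a7, the potassium-chloride cotransporter KCC4, was 1.14-fold higher at one probe set (1352 in the EST KO AKI pool and 1190 in the WT AKI pool) and level at the other (935.0 in the EST KO AKI pool and 932.0 in the WT AKI pool). Slc12a4, the potassium-chloride cotransporter KCC1, read 606.8 in the EST KO AKI pool and 954.4 in the WT AKI pool, a log2 ratio of −0.58 or lower. Slc12a9 read 877.9 in the EST KO AKI pool and 865.1 in the WT AKI pool, with no settled direction over the 8 settings (log2 −0.02 to 0.08). Within the family, the carriers of the loop and distal tubule thus had the highest ratios. Slc12a4 had the lowest but, above background in the WT AKI pool alone, could only come out lower. Of the 5 above background in both pools, Slc12a2 had the lowest log2 ratio, −0.11.

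Regulators of salt transport had 8 of 10 genes above background in both pools higher and 2 lower in the EST KO AKI pool. Among all such genes 44.8% were higher. At least 2-fold higher were 2 of the 10, beside 3.01% of all such genes, and the median log2 ratio was 0.09. Casr, Nedd4l, Wnk1, Cul3 and Cab39l, counted as higher, had log2 ratios from 0.05 to 0.17 only. The 2 lower genes were Wnk4 (1.16-fold) and Umod (1.12-fold). Kcnj16, a basolateral potassium channel subunit, was 2.61-fold higher. Sgk1, a kinase that raises sodium transport, was 2.21-fold higher. After quantile normalization the list held 1 gene past 2-fold. Pvalb, a calcium-binding protein of the early distal convoluted tubule, was at least 1.52-fold higher, and Cab39, an adaptor of kinases that regulate Slc12 carriers, 1.30-fold. Among 7 sodium pump and calcium partners, all above background in both pools, 5 were higher, 2 lower and none 2-fold apart. S100g, a calcium-binding protein, was 1.73-fold higher, the pump subunit Atp1b1 1.41-fold and the pump regulator Fxyd2 1.21-fold higher, and Fxyd4 1.35-fold lower.

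Carriers below background in both pools read from 23.8 to 570.5 in the EST KO AKI pool (median 208.6) and from 6.4 to 653.2 in the WT AKI pool (median 222.6). All 3 sodium-calcium exchangers were among them, including Slc8a1, the exchanger of the distal tubule, at 278.9 in the EST KO AKI pool and 521.1 in the WT AKI pool. Slc4a9 and Slc26a7, carriers of intercalated cells, and Slc9a2 and Slc9a4, exchangers of the loop and distal nephron, also lay below background. For these genes no order between the pools can be read.

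**Figure D3:**
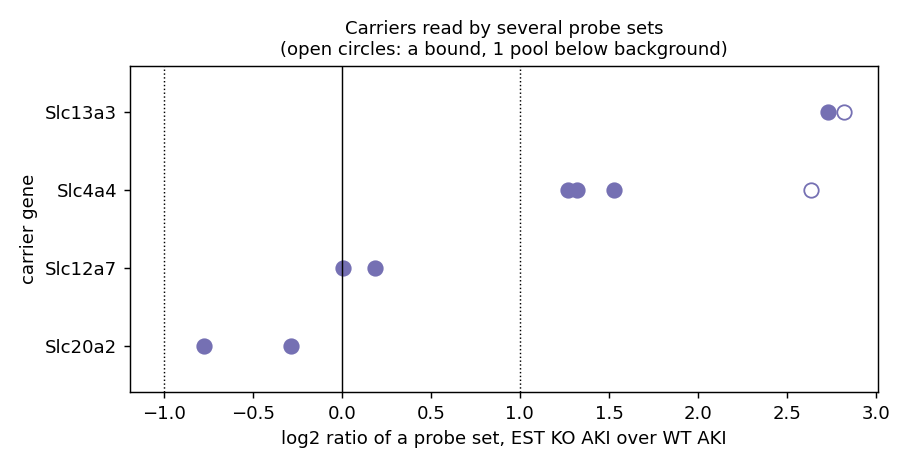
Log2 ratio (EST KO AKI over WT AKI) of each probe set with an order for the 4 carriers that have more than 1 such probe set; open circles are bounds and dotted lines mark a 2-fold difference. All 4 probe sets of Slc4a4 and both of Slc13a3 lie past 2-fold on the same side, and both of Slc20a2 lie below 0.

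Disagreement between probe sets of 1 gene is the error that single arrays allow to be measured. For 1663 genes, 2 or more probe sets lay above background in both pools, and the log2 ratios of the 2 brightest differed by a median of 0.21, and by less than 0.80 for 95% of genes. Among the 17 carriers above background in both pools, Slc13a3, Slc13a1, Slc4a4 and Slc12a1 had log2 ratios beyond 0.80, and 8 had ratios within 0.21 of 0. Of all 6118 genes above background in both pools, 7.68% lay beyond 0.80. Slc34a1 (0.75) and Slc4a2 (−0.71) were inside that limit, each read by 1 probe set. The limit is for a difference of 2 probe sets and holds the error of both. It is thus wide for the ratio of 1 probe set, whose standard deviation by the same disagreement was 0.28. This error holds nothing of the spread between mice.

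Cell type markers went in both directions. The 9 proximal tubule markers above background in both pools were all higher in the EST KO AKI pool, beside 44.8% of all such genes. By 2-fold or more 5 of the 9 were higher, beside 3.01% of all such genes. Log2 ratios of the 9 ran from 0.60 to 2.95, with a median of 1.32. Pdzk1, Slc22a6 and Aqp1 among them are also in the partner lists, so this list repeats part of those counts. The 9 proximal tubule markers had summed levels of 73002 in the EST KO AKI pool and 31229 in the WT AKI pool. Slc5a12, above background in the EST KO AKI pool alone, could only come out higher. The 7 tubular injury markers above background in both pools were all lower, 4 of them by 2-fold or more (median −1.03). Their summed levels were 58473.9 in the EST KO AKI pool and 110744.5 in the WT AKI pool. Another 3 of the 11 on the array lay above background in the WT AKI pool alone and could only come out lower. The 5 measured of 9 leukocyte markers, all above background in both pools, were lower (median −0.91, summed levels 5843 in the EST KO AKI pool and 11209 in the WT AKI pool), with Ptprc, Itgam, Cd3e and Cd79a below background in both pools. The 4 endothelial markers above background in both pools were lower (median −0.34). Their summed levels were 5304 in the EST KO AKI pool and 6941 in the WT AKI pool. Nos3 and Pecam1, above background in the WT AKI pool alone, could only come out lower, and Tek lay below background. Collecting duct principal cell markers had 2 higher and 1 lower gene among 3 above background in both pools (median 0.04). Slc13a3 and Slc13a1 lay above the proximal tubule median, Slc4a4 near it, and Slc34a1 and Slc9a3 below it, whereas Slc13a2, Slc34a3 and Slc26a1, known only as bounds, cannot be placed against it. In bulk tissue, fewer cells of a type and less RNA per cell cannot be told apart, and the part of cell makeup in these ratios was not tested.

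The labels conflict on tissue: 1 protocol sentence names liver for the EST KO AKI pool, where every other field names kidney. Of 9 hepatocyte markers on the array 6 lay below background in both pools, among them Alb at 522.3 in the EST KO AKI pool and 487.9 in the WT AKI pool. The 3 measured ones were higher in the EST KO AKI pool by unequal amounts, Ttr by 6.97-fold, Cyp2e1 by 1.79-fold and Cps1 by 1.11-fold. All 3 were above background in the WT AKI pool too, where Cyp2e1 read 11569, Ttr 1716 and Cps1 730.7. Slc34a1, a kidney carrier, lay far above background in both pools.

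**Figure D4:**
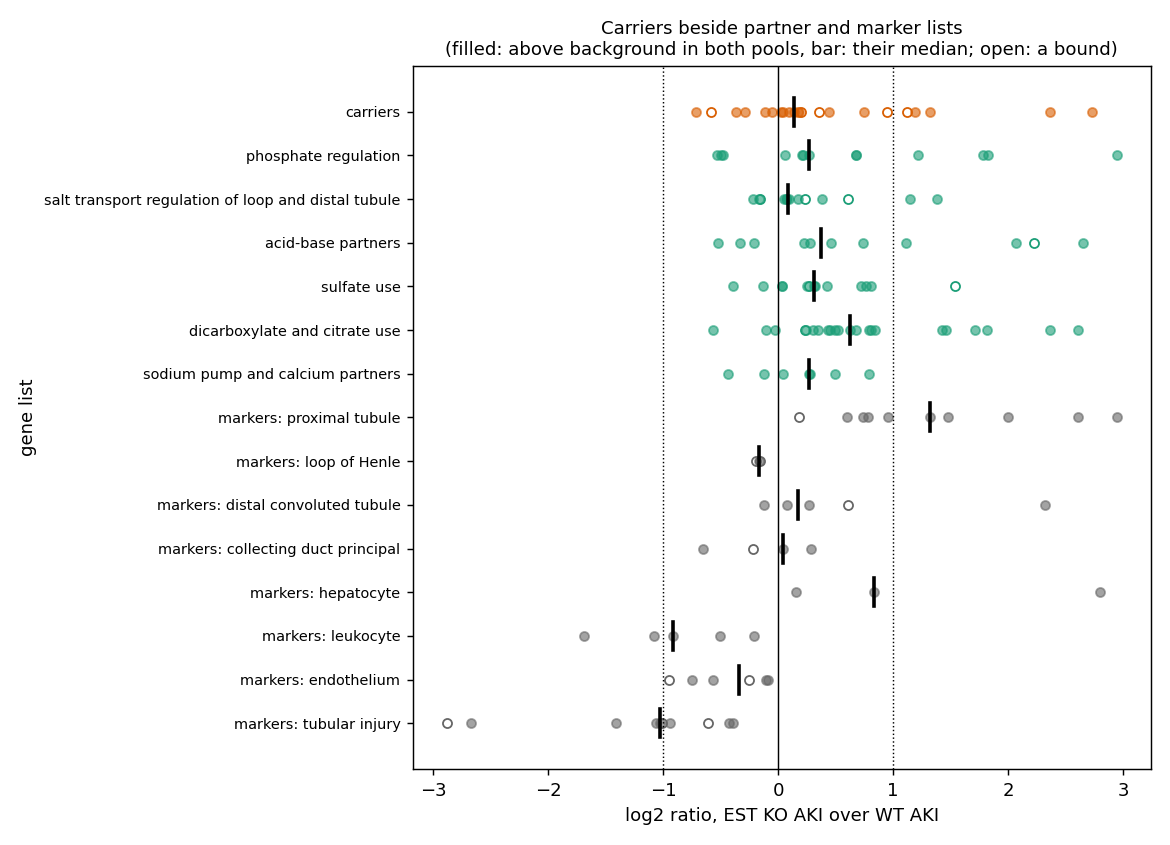
Log2 ratios (EST KO AKI over WT AKI) of the measured genes of each list, with the carriers on top, partner lists in green and marker lists in grey; filled circles are genes above background in both pools, open circles are bounds, the black bar is the median of the filled circles and dotted lines mark a 2-fold difference. All 9 filled proximal tubule markers lie above 0 and all 7 filled tubular injury markers below it, and the carriers span −0.71 to 2.73 with a median of 0.14.

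**Figure D5:**
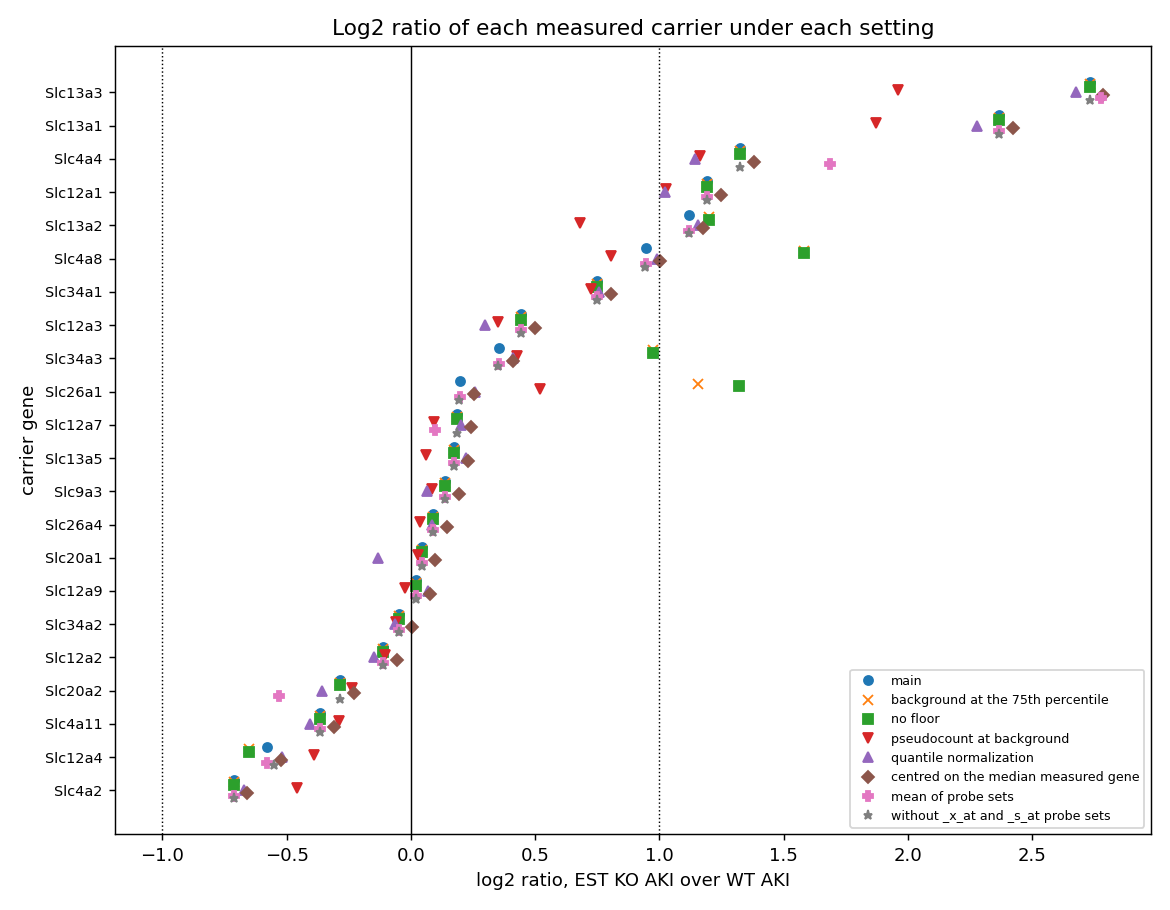
Log2 ratio (EST KO AKI over WT AKI) of the 22 measured carriers under the values as reported (main) and 7 alternatives; dotted lines mark a 2-fold difference. Slc13a3, Slc13a1, Slc4a4 and Slc12a1 stay past 2-fold under all 8 settings, and Slc26a1, Slc34a3 and Slc4a8 spread most to the right where dim values are used without the floor.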

How the data were processed

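Affymetrix arrays were hybridised with biotinylated cRNA, per the labels' protocols, 1 array for the EST KO AKI pool and 1 for the WT AKI pool. Deposited intensities, on a linear scale, gave each probe set a single value on each array; from the values themselves, each array had a mean of 500.0 after the lowest and highest 2% were dropped. How probes were scanned and summarised is not given in the sources used. Medians were 242.4 in the EST KO AKI pool and 261.8 in the WT AKI pool, and no further scaling was applied. Of the probe sets, 34958 had 1 gene symbol in the platform annotation, 932 had several and 9211 had none. Symbols were updated by Entrez ID against RefSeq names of GRCm38.p6, which matched 34754. Each gene was read from the probe set with the highest mean log2 value among those above background. Background was the 95th percentile of 129 probe sets for silent gene families (keratin-associated proteins and the taste, olfactory and vomeronasal receptors).

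Ratios are EST KO AKI over WT AKI. With 1 array per genotype there is no test and no p-value, and the spread between mice is unknown. Sizes were set beside all measured genes and beside the disagreement of probe sets for 1 gene. The calculation was tested on simulated data, with differences added only to genes bright in both pools. That test did not cover differences in values near background. Carriers, partner lists, marker lists and rules were chosen with earlier results of these data known. All measured carriers are named, with up to 4 genes of each partner list by absolute log2 ratio, plus Sult1e1, Pdzk1 and Slc9a3r1. Slc9a3r2, Ezr, Sult1a1, Car15, Car2, Acly, Sdha, Suclg2, Wnk4, Casr, Nedd4l, Wnk1, Cul3 and Cab39l were added after their values were seen. Marker genes and the carriers that lay below background and are named were chosen for their role. A total of 7 alternative settings were run. Python 3.11.15, pandas 2.3.3 and numpy 2.4.6 were used.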

Additional observations from a re-analysis of the deposited data

How the results depend on the processing

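The count of carriers at least 2-fold higher in the EST KO AKI pool was 5 and ran from 4 to 7 over 7 alternatives, and that of carriers at least 2-fold lower was 0 throughout. Slc13a3, Slc13a1, Slc4a4 and Slc12a1 were past 2-fold under all 8 settings, Slc13a2 under 7, Slc4a8 under 3 and Slc26a1 under 2. The median log2 ratio of the measured carriers, 0.18, was 0.055 with background at the 75th percentile, which left 31 carriers measured, and 0.089 with a pseudocount at background. No carrier with a 2-fold difference changed sign. Sign changes occurred for Slc12a9 with the pseudocount (−0.02), Slc20a1 after quantile normalization (−0.13) and Slc34a2 after centring on the median gene (0.01), each a ratio near 0. Over all measured genes, the 225 at least 2-fold higher became 124 with the pseudocount, and the 105 at least 2-fold lower became 197 with the lower background, 200 without the floor and 44 with the pseudocount. The median of the sodium-proton exchangers went to −0.33 with the lower background, since more members were then measured. At that setting the median of all measured bicarbonate carriers went from 0.29 to −0.18. After quantile normalization that of the phosphate carriers went from 0.04 to −0.07. No paired analysis was possible because each genotype has 1 pooled array. Signal over background limits the dim carriers: 4 of the 22 measured lay above it in the EST KO AKI pool alone.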
